A study of Drosophila melanogaster with 14 samples.

Results

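The response of larval type II neural stem cells to GAF RNAi was set against their response to Osa overexpression in Drosophila melanogaster. The 2 responses were subtracted in 1 fit of raw counts, which used 10 of the 14 libraries of the series. There were 3 GAF RNAi libraries with 3 GAF control libraries, and 2 Osa overexpression libraries with 2 Osa control libraries. Both control groups are labelled wild type. No library is shared between the experiments, so each response has controls of its own. The labels give cells of type II neural stem cell identity from the larval brain and no age, sex, driver line or allele. Each library was made from 1k to 2k cells with a whole-transcriptome amplification kit, and nothing in the labels says that libraries of a group came from separate animals or crosses. The p-values therefore cover only the variation among these libraries, and that variation may be technical.

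Type II neuroblasts are the larval brain stem cells that divide into another stem cell and an intermediate neural progenitor, which in turn makes ganglion mother cells, neurons and glia. GAF (GAGA factor, gene Trl) binds GA-rich promoters and helps to keep them accessible. Osa is the ARID-domain subunit of the BAP form of the Brahma chromatin remodelling complex, and it acts in type II lineages with the Notch pathway and its progenitor targets. The subtraction asks which genes answer differently to the loss of GAF and to extra Osa.

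Throughout, the GAF response is the log2 fold change of GAF RNAi over GAF control, and the Osa response is that of Osa overexpression over Osa control. The difference is the GAF response minus the Osa response, so a positive value means that the GAF response lies above the Osa response. A gene was called where the Benjamini-Hochberg adjusted p of edgeR's quasi-likelihood test was under 0.05. Levels are CPM, the counts relative to TMM-scaled library sizes over the 10 libraries, and are compared only within a gene. Each value after ± is a standard error computed from the log2 value and the F statistic of that test.

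Libraries of the GAF experiment had 42372121 to 51505597 counts in total, and those of the Osa experiment had 31788351 to 34062172. The 7 stem cell markers dpn, pnt, btd, wor, mira, klu and Sp1 were all detected. They summed to 1205 to 1322 CPM in GAF RNAi, 1229 to 1377 in GAF controls, 894 to 908 in Osa overexpression and 1183 to 1262 in Osa controls. The starting points of the experiments differed: 6 mature neuron markers summed to 30.9 to 49.5 CPM in GAF RNAi and 8.58 to 15 CPM in GAF controls, but to 522 to 617 CPM in Osa overexpression and 310 to 437 CPM in Osa controls. Markers of 6 glial genes summed to 10.7 to 21.9, 8.93 to 15.5, 46.8 to 60.9 and 20.9 to 28.2 CPM in the same order of groups. The wider list of 24 glia genes ordered the groups otherwise, with GAF controls highest. It summed to 781 to 816.5, 1271 to 1360, 882.8 to 946.7 and 869.5 to 961.4 CPM. In every library 5 blood cell markers summed to at most 3.33 CPM, 4 fat body markers to at most 0.319 CPM and 4 muscle markers to at most 9.97 CPM. Those of the wider lists used below summed higher. Over all libraries 13 blood cell genes summed to 38.8 to 62.4 CPM, 9 fat body genes to 197 to 325 CPM and 11 muscle genes to 18.3 to 30.5 CPM. In such bulk samples fewer cells of a type and less RNA per cell cannot be told apart.

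The targeted genes were looked at first. For osa (FBgn0261885, chromosome 3R from 17687818 to 17718350 in BDGP6, minus strand) the GAF RNAi libraries held 95.3, 117 and 101 CPM, against 113, 81.2 and 98.8 CPM in GAF controls. The Osa overexpression libraries held 247 and 243 CPM, against 123 and 124 CPM in Osa controls. The 2 overexpression libraries lay above all others, while the GAF groups overlapped. The Osa response was 0.99 and the difference −0.89 ± 0.21 (edgeR adjusted p = 0.0116). That call was lost without Osa control replicate 1 (edgeR adjusted p = 0.0536) or 2 (0.0569) and with all 14 libraries in the fit (0.163). The rise is that of an overexpression, as the sample labels say, although the text describing the design names a knockdown of Osa. Trl (FBgn0013263, chromosome 3L from 14747929 to 14761049, minus strand) held 5.78, 6.71 and 5.01 CPM in GAF RNAi and 7.14, 6.25 and 5.35 CPM in GAF controls, and these groups overlapped. Exons of other genes, mainly CG42507, cover 77.8% of its exonic bases, and the counting of reads there is not described, so these counts do not show whether Trl RNA fell. The Trl difference was −0.05 ± 0.42 (edgeR adjusted p = 0.965).

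Of 10314 genes tested, the difference was called for 1894, which is 18.4%. It was positive for 975 genes (9.45%) and negative for 919 (8.91%), and at least 2-fold for 1084. The GAF response alone was called for 2682 genes (26%), 1135 higher (11%) and 1547 lower (15%). The Osa response alone was called for 1724 genes (16.7%), 565 higher (5.48%) and 1159 lower (11.2%). Genes called in both responses numbered 560, which is 20.9% of the GAF-called and 32.5% of the Osa-called genes. Most of these moved the same way: 81 rose in both and 334 fell in both, and the difference was called for 6 and 35 of them. The other 145 moved in opposite directions, 99 higher in GAF RNAi and lower in Osa overexpression (0.96% of genes tested) and 46 lower in GAF RNAi and higher in Osa overexpression (0.446%). Among positive differences 300 genes were called in the GAF response alone, 464 in the Osa response alone and 87 in neither. Among negative differences the numbers were 509, 218 and 130.

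These counts depended on single libraries of both experiments. Without GAF control replicate 1 the difference was called for 2689 genes and 312 were opposite. Without any 1 of the other GAF libraries 76 to 90 were opposite, in place of 145. Without Osa overexpression replicate 1 the difference was called for 619 genes and 23 were opposite, without Osa control replicate 1 the numbers were 822 and 34, and without Osa control replicate 2 they were 686 and 30. Adding the 4 HDAC1 libraries to the fit, so that they also inform the spread, gave 321 called differences, 317 of them among the 1894, and 7 opposite genes. Scaling by library size only, in place of TMM, called 2260 differences but moved the share of positive ones to 25.8% from 51.5%, with 583 positive and 1677 negative. It moved the median difference of all genes to −0.23 from 0.03. It also turned the balance of the Osa response over, to 1371 genes higher and 574 lower, and that of the opposite genes, to 48 higher in GAF RNAi and 119 lower in GAF RNAi. Of the 145 opposite genes 75 stayed opposite under it, and the difference stayed called for all 145. Of 47 list directions below with at least 3 called genes, 4 stayed within 1.5 times their count whichever library was left out. These were negative differences of neuroblast factors, both directions of glutathione S-transferases and negative differences of cytochromes P450. With all 14 libraries negative differences numbered 0 of neuroblast factors and 1 of cytochromes P450, in place of 4 and 3. Glutathione S-transferases then had 1 positive and 6 negative, in place of 3 and 7.

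**Figure D1:**
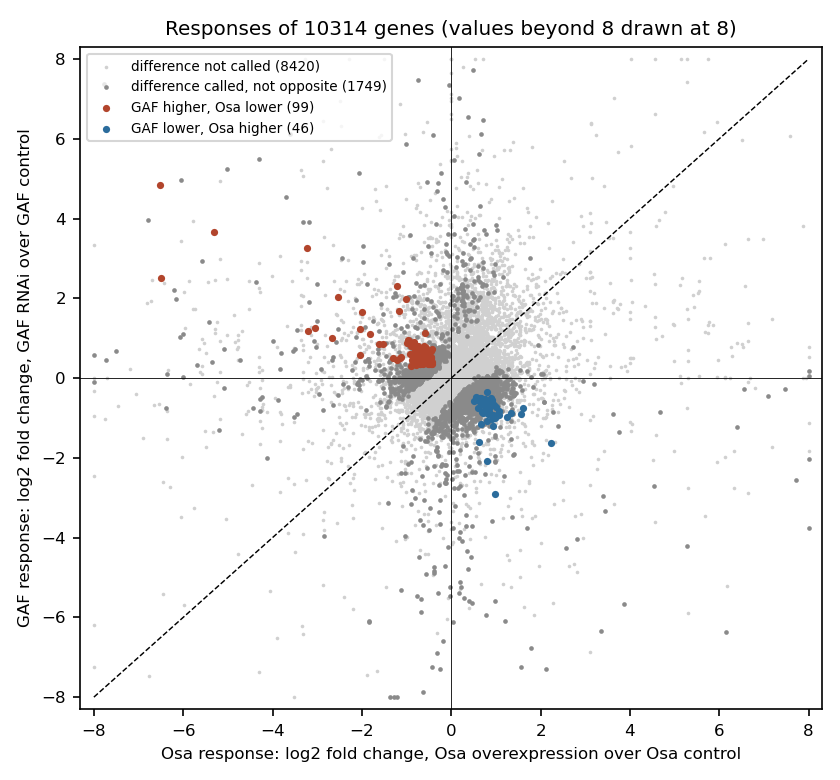
GAF response (vertical axis, log2 fold change) against Osa response (horizontal axis, log2 fold change) for 10314 genes, with values beyond 8 drawn at 8; the dashed line marks equal responses. The 99 red genes (higher in GAF RNAi, lower in Osa overexpression) lie upper left and the 46 blue genes (lower in GAF RNAi, higher in Osa overexpression) lower right, most within a few log2 units of the origin.

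The direction of the difference varied with the exonic length of the gene, though not evenly up to the longest genes. Exonic lengths were matched for 9812 genes (95.1%), whose median was 2004 bases. In 10 bins of equal size, the shortest bin (52 to 705 bases) had positive differences for 24.6% of genes and negative ones for 0.407%, whereas in bin 8 (3072 to 4045 bases) it was positive for 2.55% and negative for 20.3%. The trend turned back in longer genes, with a median difference of −0.51 in bin 8, −0.29 in bin 9 and 0.13 in bin 10. In bin 10 (5818 to 71820 bases) the difference was positive for 7.84% and negative for 5.7%. The median Osa response was −0.48 in the shortest bin and 0.48 in bin 8, and the median GAF response was 0.38 and −0.05. Genes higher in GAF RNAi and lower in Osa overexpression had a median length of 729 bases, with 76 of 89 in the 3 shortest bins, and the opposite set had a median of 3505 bases, with 0 of 44 there. With the length trend of each library taken out as an offset, 919 differences were called, 694 of them among the 1894, and 54 genes were opposite, 48 of them higher in GAF RNAi. Length-adjusted counts are given below for part of the lists, and others moved too. Positive and negative counts went from 2 and 2 to 0 and 0 for histone acetyltransferase genes. They went from 0 and 3 to 0 and 0 for innate immunity genes and from 4 and 5 to 1 and 2 for initiation factors. Vacuolar proton pump genes went from 3 and 4 to 1 and 1, cyclin and Cdk genes from 3 and 3 to 6 and 1. Axon guidance genes went from 6 and 3 to 5 and 0. Whether length or its correlates bear on a group was not tested further.

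**Figure D2:**
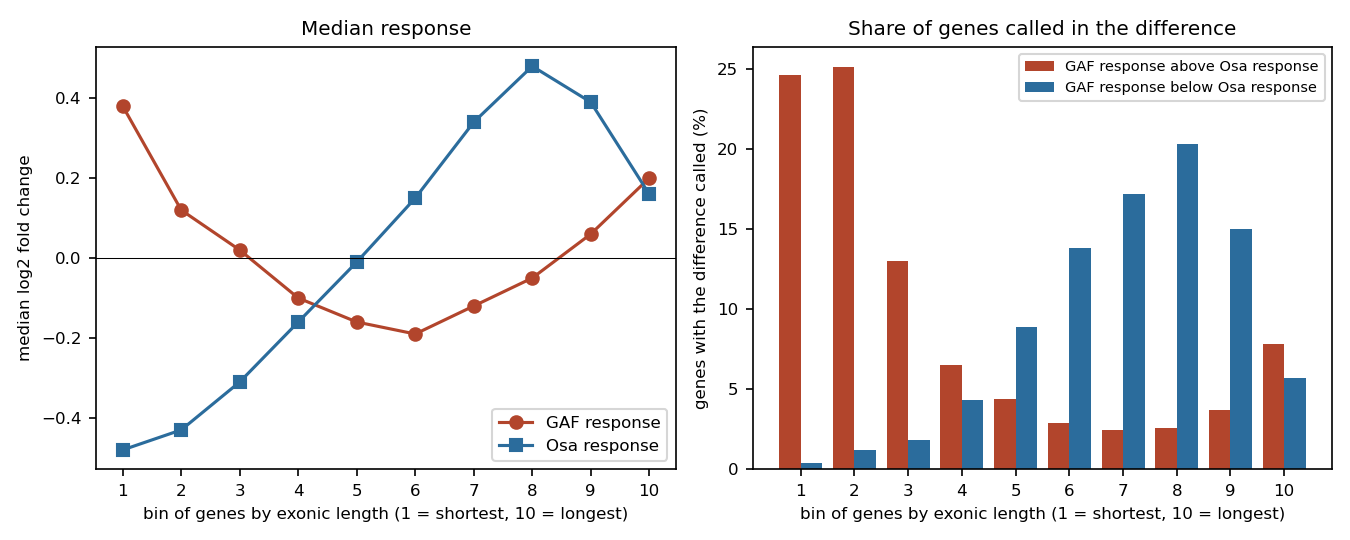
Left, median GAF and Osa response (log2 fold change) in 10 bins of 9812 genes by exonic length, from 1 (shortest) to 10 (longest). Right, share of genes in each bin whose GAF response was called above (red) or below (blue) the Osa response; red bars reach 25.1% in bin 2 and blue bars 20.3% in bin 8.

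The median difference was 1.21 for the 99 genes that rose in GAF RNAi and fell in Osa overexpression, and −1.6 for the 46 with the reverse pattern. The 99 included cuticle protein genes of the Ccp84A cluster on chromosome 3R, the piRNA factor gene mael and transcripts of the mitochondrial genome. Ccp84Ab (FBgn0004782, from 6701968 to 6702877, minus strand) held 254, 247 and 388 CPM in GAF RNAi and 40.7, 12.2 and 17.6 CPM in GAF controls. It held 0 and 0.285 CPM in Osa overexpression and 2.87 and 8.35 CPM in Osa controls. The GAF libraries lay far above their controls and the Osa overexpression libraries below theirs, with no overlap. The difference of Ccp84Ab was called (edgeR adjusted p = 0.00837), but not without Osa overexpression replicate 1 (0.0504). Its neighbour Ccp84Aa held 16, 13.4 and 21.8 CPM in GAF RNAi against 2.57, 1.04 and 1.78 in GAF controls, and 0.0915 and 0.143 CPM in Osa overexpression against 0.644 and 1.57 in Osa controls (difference 6.47 ± 0.73, edgeR adjusted p = 9.41e-05). Cpr64Ac, a cuticle gene of another cluster, held 1296, 2146 and 3220 CPM in GAF RNAi against 1059, 820 and 897 in GAF controls. In the Osa experiment it held 46.9 and 81.8 CPM in overexpression against 456 and 607 in controls, so it moved mostly there (responses 1.26 and −3.05, difference 4.31 ± 0.54, edgeR adjusted p = 0.00198).

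The gene mael encodes Maelstrom, a factor of piRNA-guided transposon silencing best known from the germline (FBgn0016034, chromosome 3L from 22721203 to 22726234, plus strand). Its level was 148, 150 and 148 CPM in GAF RNAi, against 47.3, 25.9 and 36.9 CPM in GAF controls. It was 7.84 and 7.23 CPM in Osa overexpression, against 48.7 and 38.5 CPM in Osa controls. The controls of both experiments had like levels, and the GAF RNAi and Osa overexpression libraries lay on either side of them. The GAF response was 2.02, the Osa response −2.53 and the difference 4.55 ± 0.3 (edgeR adjusted p = 7.88e-07), and it was called under every alternative run. Another piRNA factor gene, squ, moved less in the same pattern, with responses of 1.14 and −0.59 and a difference of 1.73 ± 0.21 (edgeR adjusted p = 0.000183).

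Others of this pattern had single functions. Or67d, a pheromone receptor gene of olfactory neurons, held 20.7, 21.5 and 17.8 CPM in GAF RNAi against 10.4, 10.1 and 7.39 in GAF controls, and 0.503 and 0.928 CPM in Osa overexpression against 2.9 and 2.15 in Osa controls. The gene fest held 38.7, 52.2 and 63 CPM in GAF RNAi against 20.2, 13.5 and 14.7 in GAF controls, and 2.52 and 3.59 CPM in Osa overexpression against 6.36 and 7.31 in Osa controls. Lsp1gamma, a larval serum protein gene of the fat body, held 31, 35.5 and 28.4 CPM in GAF RNAi against 23, 14.3 and 15 in GAF controls, and 2.58 and 3.64 CPM in Osa overexpression against 7.91 and 9.92 in Osa controls. None of these groups overlapped within an experiment, and the differences were 2.93 ± 0.43, 2.83 ± 0.36 and 2.38 ± 0.36. The fat body markers Lsp1alpha, Lsp1beta, Lsp2 and Fbp1 were too low to be tested. Of 9 fat body genes tested 1 difference was positive, and 1 was negative, that of Apoltp. The call of Apoltp was lost with the length offset (edgeR adjusted p = 0.0729) and with all 14 libraries (0.0841).

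Genes that fell in GAF RNAi and rose in Osa overexpression included metabolic and signalling genes and several transcription factors, esg among them. PCB, the pyruvate carboxylase gene (FBgn0027580, chromosome 2R from 9850703 to 9861543, minus strand), held 2.2, 3.72 and 4.41 CPM in GAF RNAi against 22.2, 28.1 and 27.2 in GAF controls. It held 78.4 and 42.3 CPM in Osa overexpression against 28.3 and 32.8 in Osa controls. GAF RNAi libraries were low throughout and the first Osa overexpression library was the highest of all (responses −2.91 and 0.98, difference −3.89 ± 0.41, edgeR adjusted p = 7.91e-05). Adgf-A, a secreted adenosine deaminase gene, held 6.54, 5.22 and 8.7 CPM in GAF RNAi against 27.7, 27.4 and 31.2 in GAF controls, and 73.1 and 86.7 CPM in Osa overexpression against 51.7 and 40.7 in Osa controls (difference −2.87 ± 0.29, edgeR adjusted p = 4.05e-05). Arc1, which encodes a retrotransposon-derived capsid protein of neurons, held 1.54, 1.86 and 1.95 CPM in GAF RNAi against 10.2, 2.48 and 3.78 in GAF controls, and 12.6 and 8.73 CPM in Osa overexpression against 2.58 and 1.94 in Osa controls (difference −3.85 ± 0.72).

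Among regulators with this pattern was esg (escargot, FBgn0287768, chromosome 2L from 15333866 to 15336138, plus strand), a Snail-family repressor gene of neuroblasts and other stem cells. It held 20.9, 13.6 and 14.4 CPM in GAF RNAi against 36.1, 27.9 and 31.5 in GAF controls, and 32.9 and 37.1 CPM in Osa overexpression against 16.1 and 13.6 in Osa controls. The forkhead-domain gene fd102C held 102, 82.2 and 88.3 CPM in GAF RNAi against 236, 115 and 166 in GAF controls, and 83 and 93 CPM in Osa overexpression against 40.8 and 45.4 in Osa controls. For both genes the libraries of an experiment did not overlap, and the differences were −2.21 ± 0.3 and −1.95 ± 0.33 (edgeR adjusted p = 0.00041 and 0.00246). With all 14 libraries in the fit neither passed (0.0851 and 0.0893).

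The remaining named genes of this set were lin (lines, a segmentation and Wnt pathway gene), cdm (an importin gene), Cdc5 (a spliceosome component), BOD1 and cora (a septate junction scaffold), with differences between −2.48 and −1.96. All 5 held higher CPM in both Osa overexpression libraries than in both Osa controls and lower CPM in all GAF RNAi libraries than in all GAF controls. Of the 10 named genes in this direction, 10 kept their call when any single library was left out, 10 with the length offset and 6 with all 14 libraries. Of the 10 in the other direction the numbers were 9, 10 and 8. These numbers are for the call of the difference, not for the opposite pattern, which held less often. Over all genes, those lower in GAF RNAi and higher in Osa overexpression numbered 46, but 6 with the length offset and 0 with all 14 libraries. Those in the other direction numbered 99, but 48 and 7. Also opposite, and chosen after the values were seen, were 2 brakes on the growth kinase TOR. The stress-induced inhibitor gene chrb had responses of −0.89 and 0.83, and PRAS40 had responses of −0.93 and 0.93, with differences of −1.72 ± 0.24 and −1.86 ± 0.31. In the fixed list of 28 insulin and TOR pathway genes tested, 1 difference was positive (REPTOR, a growth-restraining transcription factor gene lowered in Osa overexpression) and 2 were negative, mio and the PI3-kinase gene Pi3K92E, the last of them opposite (−0.57 and 0.52). The call of REPTOR was lost without Osa overexpression replicate 1 (edgeR adjusted p = 0.0522) or Osa control replicate 1 (0.0664) or 2 (0.0578), and that of mio without Osa control replicate 2 (0.0555).

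**Figure D3:**
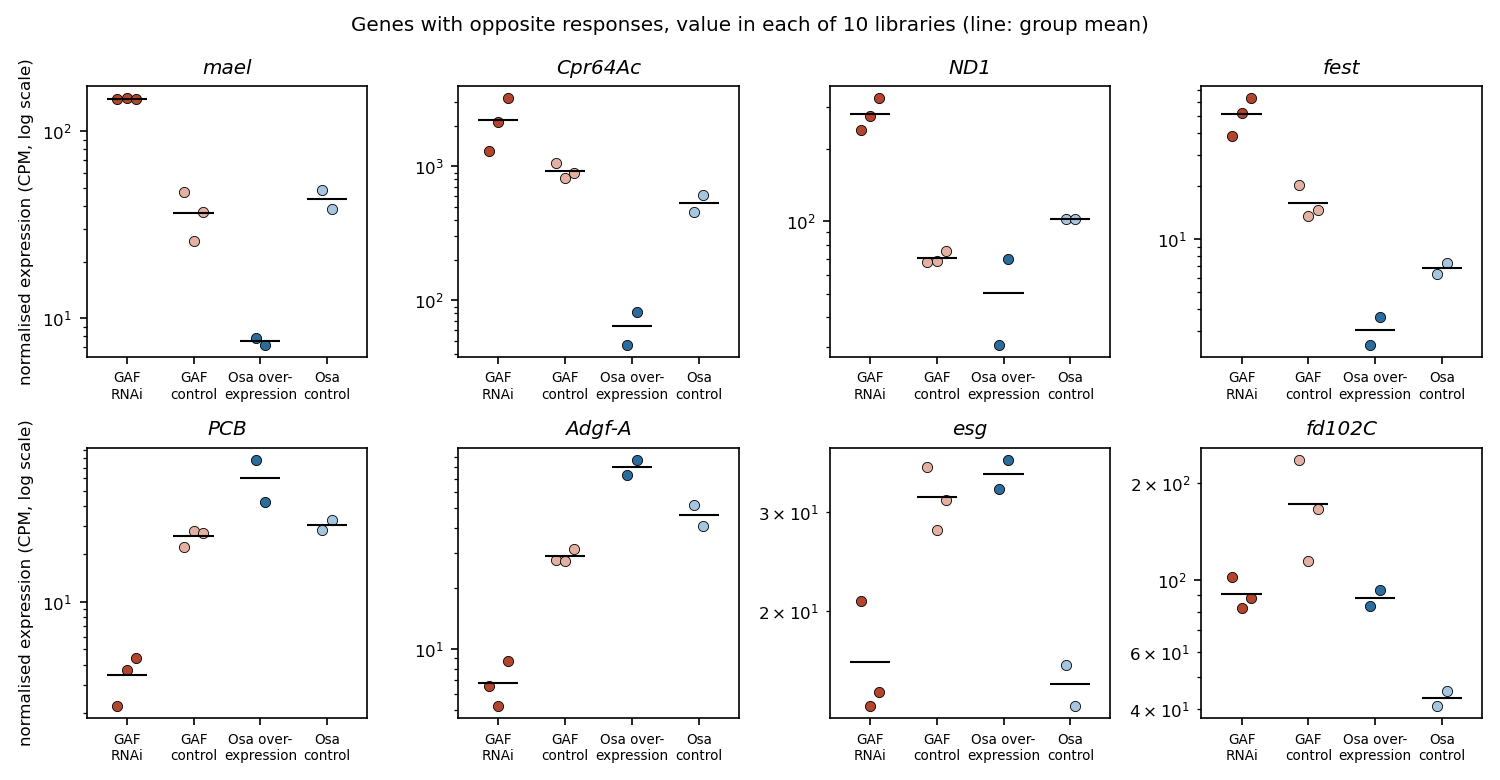
Normalised expression (CPM, log scale) of 8 genes with opposite responses in each library; points are libraries, lines group means, with GAF RNAi, GAF control, Osa overexpression and Osa control from left to right. In the upper row (mael, Cpr64Ac, ND1, fest) red lies above its control and blue below its control, and in the lower row (PCB, Adgf-A, esg, fd102C) the reverse holds.

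Factors of neuroblast self-renewal split between the responses. Of 17 tested, the difference was positive for 4 (pnt, grh, tll and zld) and negative for 4 (esg, sna, btd and drm), and the list median was −0.15. Positive calls numbered 2 without GAF control replicate 3, Osa overexpression replicate 1 or Osa control replicate 1. The length offset left 3 positive and 3 negative, with a median of 0.05. All 4 positive ones had fallen in Osa overexpression with no call in GAF RNAi. The Ets factor gene pnt (pointed, FBgn0003118, chromosome 3R from 23290231 to 23346167, minus strand) drives progenitor production in type II lineages. It held 447, 459 and 439 CPM in GAF RNAi against 425, 332 and 316 in GAF controls, and 81 and 113 CPM in Osa overexpression against 296 and 300 in Osa controls. The Osa overexpression libraries lay far below all others, and the difference of 1.94 ± 0.22 (edgeR adjusted p = 0.000101) was called under every alternative run. The neuroblast factor gene grh (grainyhead) held 289, 386 and 334 CPM in GAF RNAi against 424, 304 and 332 in GAF controls, which overlapped, and 88.8 and 104 CPM in Osa overexpression against 286 and 311 in Osa controls (difference 1.56 ± 0.23, edgeR adjusted p = 0.000695).

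The Osa responses of tll (an orphan nuclear receptor gene) and zld (Zelda, a pioneer factor gene) were −1.22 and −0.75, beside GAF responses of −0.38 and 0 that were not called. The call of tll was lost without Osa overexpression replicate 1 or Osa control replicate 1 (edgeR adjusted p = 0.117 for both), GAF RNAi replicate 1 (0.0535) or GAF control replicate 3 (0.0508), and with library size only (0.112). That of zld was lost in 6 of 10 such fits. In the other direction sna (snail) fell in GAF RNAi, with 117, 94.5 and 121 CPM in GAF RNAi against 317, 305 and 232 in GAF controls, and 52.6 and 61.5 CPM in Osa overexpression against 63.2 and 65.2 in Osa controls (difference −1.19 ± 0.22, edgeR adjusted p = 0.00368). The type II specification factor gene btd (buttonhead) was opposite, with 42.1, 35.7 and 42.1 CPM in GAF RNAi against 59.2, 61.5 and 93.4 in GAF controls, and 73.6 and 54.3 CPM in Osa overexpression against 35.6 and 43.7 in Osa controls. Its difference was −1.53 ± 0.29 (edgeR adjusted p = 0.00397). The odd-skipped-family gene drm rose in Osa overexpression by 3.2 beside a GAF response of −0.15, a difference lost without Osa overexpression replicate 1 (edgeR adjusted p = 0.0703), with the length offset (0.0503) and with all 14 libraries (0.0719). The pan-neuroblast factor gene dpn, 59.3% of whose exonic bases overlap an antisense gene, had responses of −0.23 and −0.31 and no called difference (0.08 ± 0.29, edgeR adjusted p = 0.889).

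Of 15 intermediate progenitor factors tested, 8 rose and 2 fell in GAF RNAi, and 7 rose and 2 fell in Osa overexpression, with list medians of 1.1 and 0.76, and 11 differences were not called. The median difference was −0.45, and −0.03 with the length offset. For ase (asense, the proneural gene that type II neuroblasts lack) the GAF RNAi libraries held 109, 84.3 and 110 CPM against 32.7, 36.9 and 50.6 in GAF controls, and the Osa overexpression libraries 181 and 174 CPM against 60.7 and 42.1 in Osa controls. Both treated groups lay above both control groups, and the difference of −0.45 ± 0.28 did not pass (edgeR adjusted p = 0.281). The progenitor genes erm, D and opa likewise rose in both, without a called difference. Exceptions were toy, an eyeless paralog, which rose in GAF RNAi by 2.02 beside an Osa response of 0.36 (difference 1.65 ± 0.43, edgeR adjusted p = 0.0191), and slp1 and slp2, forkhead genes of the progenitor temporal series, which fell in GAF RNAi by 0.89 and 0.94 beside Osa responses of 0.39 and 0.2. The fourth, SoxN, fell in Osa overexpression by 1.06 beside a GAF response of −0.38 (difference 0.68 ± 0.21), and its call was lost in 8 of 10 fits that left out a library. The call of toy was lost without Osa overexpression replicate 1 (edgeR adjusted p = 0.112), Osa control replicate 1 (0.0664) or 2 (0.0662). That of slp1 was lost without Osa control replicate 2 (0.0638), and that of slp2 with the length offset (0.0584). The differentiation factor gene pros held 694, 628 and 342 CPM in GAF RNAi against 196, 89.5 and 170 in GAF controls, and 386 and 341 CPM in Osa overexpression against 107 and 175 in Osa controls, with no called difference (0.5 ± 0.57, edgeR adjusted p = 0.592). Of 17 genes of ganglion mother cells and newborn neurons, 12 rose in GAF RNAi and 5 in Osa overexpression, and 1 difference was called, that of the neuronal RNA-binding protein gene Rbp9 (2.97 ± 0.49).

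Temporal patterning genes, which change with neuroblast age, gave 4 positive and 3 negative differences among 17 tested (41.2% called). With single libraries left out the positive ones numbered 2 to 6, lowest without Osa control replicate 2, and the negative ones 1 to 3, lowest without GAF RNAi replicate 1, Osa overexpression replicate 1 or either Osa control. Syp, an RNA-binding protein gene of old neuroblasts, held 8114, 8490 and 9264 CPM in GAF RNAi against 7555, 6223 and 5885 in GAF controls, and 1451 and 2001 CPM in Osa overexpression against 3961 and 5135 in Osa controls. The GAF libraries were not called apart (0.4), whereas the Osa overexpression libraries were low (−1.4), giving a difference of 1.79 ± 0.24 (edgeR adjusted p = 0.000385). The nuclear receptor gene svp, a switching factor, followed the same pattern with responses of −0.05 and −1.54 (difference 1.48 ± 0.29). Eip93F, an ecdysone-induced late factor, rose in GAF RNAi by 0.82 beside an Osa response of −0.39 (difference 1.21 ± 0.26), a call lost without Osa control replicate 2 (edgeR adjusted p = 0.055). It was the 1 called gene among 20 ecdysone response genes. The gene danr, a distal antenna relative active in progenitors, fell in GAF RNAi by 1.68 beside an Osa response of 0.34, with 18.5, 19.1 and 23.2 CPM in GAF RNAi against 73.5, 53.3 and 67.4 in GAF controls, and 37.8 and 34.4 CPM in Osa overexpression against 32.4 and 24.5 in Osa controls (difference −2.02 ± 0.26, edgeR adjusted p = 0.000271).

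Transcripts of the mitochondrial genome rose in GAF RNAi and in part fell in Osa overexpression, 10 and 5 of the 15 tested. The difference was positive for 11 and negative for none, with median responses of 0.93 and −0.71 and a median difference of 1.74. Opposite by the test were 5, namely ND1, ND4, COX1, COX2 and CYTB, which encode subunits of respiratory complexes I, IV and III. ND1 held 241, 274 and 325 CPM in GAF RNAi against 68, 68.3 and 75.5 in GAF controls, and 30.7 and 69.9 CPM in Osa overexpression against 102 and 102 in Osa controls. COX2 held 5442, 7332 and 7411 CPM in GAF RNAi against 3737, 3269 and 3706 in GAF controls, and 719 and 1070 CPM in Osa overexpression against 1702 and 1478 in Osa controls. In both genes the groups of an experiment stood apart, and the first Osa overexpression library was the lower of its pair. The differences were 3.01 ± 0.37 and 1.74 ± 0.25 (edgeR adjusted p = 0.000544 and 0.000671). The whole mitochondrial genome took 9.55%, 9.89% and 11% of counts in GAF RNAi against 5.78%, 6.34% and 7.41% in GAF controls, and 4.12% and 5.82% in Osa overexpression against 6.01% and 5.53% in Osa controls. The last 2 groups overlap. The count of positive differences was 7 to 11 with single libraries left out (7 without GAF RNAi replicate 3, Osa overexpression replicate 1 or Osa control replicate 1), 13 with the length offset (which has no length for these genes and used the median) and 1 with all 14 libraries.

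Nuclear genes of the respiratory chain and of the ribosome differed mainly through falls in Osa overexpression. Of 33 nuclear complex I genes the difference was positive for 20, and of 39 genes of complexes II to V it was positive for 23 and negative for 2. Of 87 cytosolic ribosomal protein genes it was positive for 55, and of 72 mitochondrial ribosomal protein genes it was positive for 40 and negative for 1. The Osa response was called lower for 23, 26, 80 and 59 genes of these 4 lists and higher for none. The GAF response was called lower for 4, 8, 12 and 14 and higher for 3, 7, 1 and 5. The median Osa responses were −0.62, −0.69, −0.81 and −0.7, beside median GAF responses of 0.03, 0.08, −0.13 and −0.07. RpS27, of the small ribosomal subunit, held 1532, 1735 and 1717 CPM in GAF RNAi against 1594, 1359 and 1437 in GAF controls, which overlapped, and 682 and 764 CPM in Osa overexpression against 1190 and 1374 in Osa controls (difference 1.01 ± 0.18, edgeR adjusted p = 0.00287). Opposite by the test were 3 genes of complex I (such as ND-B14.5B and ND-MLRQ), 4 of complexes II to V and 5 mitochondrial ribosomal protein genes (such as mRpS33 and mRpL52). COX7A, of complex IV, held 1342, 1417 and 1370 CPM in GAF RNAi against 795, 876 and 702 in GAF controls, and 351 and 400 CPM in Osa overexpression against 629 and 639 in Osa controls (difference 1.55 ± 0.18, edgeR adjusted p = 0.0001). UQCR-Q, of complex III, had responses of 0.54 and −0.82.

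These 4 lists are made of short genes, with median exonic lengths of 871, 802, 901 and 783 bases. With the length offset the positive differences numbered 3, 6, 8 and 1, and the median differences were 0.09, 0.03, 0.19 and 0.03 in place of 0.68, 0.72, 0.71 and 0.67. Without Osa overexpression replicate 1 they numbered 11, 15, 14 and 19, without Osa control replicate 2 they numbered 13, 16, 15 and 22, and with all 14 libraries 3, 3, 6 and 2. COX7A, UQCR-Q and ND-B14.5B kept their calls with the length offset, and RpS27 (edgeR adjusted p = 0.208), mRpS33 (0.494) and ND-MLRQ (0.16) did not. Proteasome genes, 17 of 36 in the 3 shortest bins, showed the same direction with 9 positive and 1 negative difference (median responses 0.03 and −0.22), but 1 and 0 with the length offset (median difference 0.25, and −0.02 with library size only) and 3 positive without Osa overexpression replicate 1 or Osa control replicate 1.

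Of 7 genes of the Sm ring, the protein core of spliceosomal particles, the difference was positive for 6 and negative for 0, and 5 were opposite; the length offset left 0 positive. Of 10 subunit genes of the EMC, a membrane protein insertase of the endoplasmic reticulum, the difference was positive for 7 and negative for 0, and 3 were opposite; the length offset left 1 positive. Both families were looked at after values of their members had been seen. The opposite Sm genes SmD1, SmF, SmB, SmE and SNRPG rose in GAF RNAi by 0.47, 0.47, 0.36, 0.4 and 0.35 and fell in Osa overexpression by 0.52, 0.52, 0.63, 0.48 and 0.46. SmD1 held 541, 538 and 530 CPM in GAF RNAi against 388, 403 and 371 in GAF controls, and 195 and 234 CPM in Osa overexpression against 292 and 325 in Osa controls, with no overlap in either experiment. The opposite EMC genes EMC4, EMC6 and EMC7 had differences of 1.22, 1.3 and 0.95. With the length offset EMC4 kept its call (edgeR adjusted p = 0.0278), and the other 7 opposite genes of this paragraph did not (0.0555 to 0.893). That of SNRPG was also lost without Osa overexpression replicate 1 (0.0543).

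**Figure D4:**
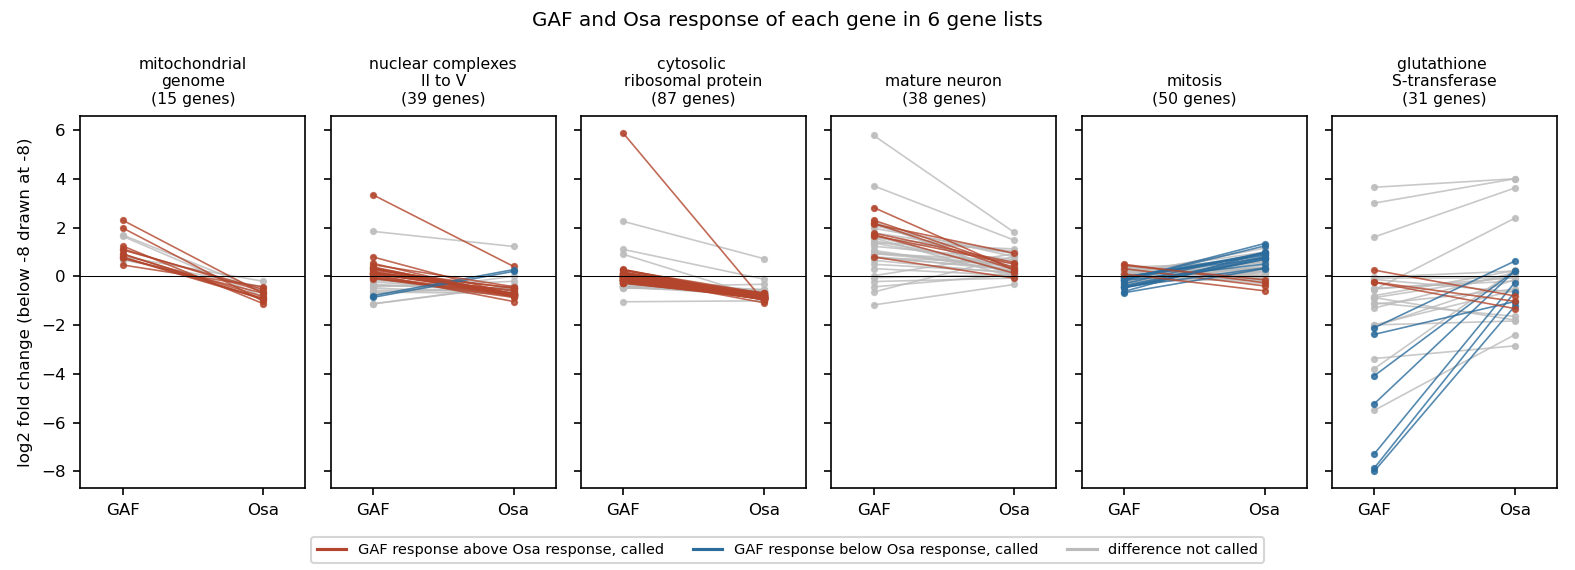
GAF response (left) and Osa response (right) of each tested gene in 6 gene lists, as log2 fold changes joined by a line; values below −8 are drawn at −8. Red lines mark genes whose GAF response was called above the Osa response, blue lines those called below it, and grey lines genes without a called difference; 11 of 15 mitochondrial genome lines are red and 16 of 50 mitosis lines blue.

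Cell division genes differed mostly the other way. The share called was 40% of mitosis, 23.5% of DNA replication and 18.8% of cyclin and Cdk genes, beside 18.4% of all genes tested. Of 50 mitosis genes the difference was negative for 16 and positive for 4, with median responses of −0.03 and 0.34, and 15 rose in Osa overexpression. Ndc80, of the kinetochore, held 15.7, 14.6 and 12.4 CPM in GAF RNAi against 17.7, 16.6 and 18.4 in GAF controls, and 108 and 74.6 CPM in Osa overexpression against 44 and 47.7 in Osa controls (difference −1.3 ± 0.25, edgeR adjusted p = 0.00412). The kinesin-5 gene Klp61F and the cohesin gene SA had Osa responses of 0.81 and 1.25 and differences of −1.19 ± 0.26 and −1.4 ± 0.3. Mps1, a spindle checkpoint kinase gene, instead fell in GAF RNAi by 0.67 (difference −0.99 ± 0.23). The condensin genes Cap-D2 and SMC2 had differences of −1.49 and −0.89, and the checkpoint gene mad2 and the securin gene pim, of 818 and 978 exonic bases, had positive ones of 0.71 and 0.6. Of 34 DNA replication genes 6 differences were negative and 2 positive, and Gnf1, the large subunit gene of the clamp loader, was opposite (−0.71 and 0.81). Among 32 cyclin and Cdk genes 3 were positive, CycE with responses of 0.41 and −0.36 among them, and 3 negative, and both counts were 0 without Osa control replicate 2.

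The negative mitosis count was 2 to 21 with single libraries left out (2 without Osa overexpression replicate 1, 3 without Osa control replicate 2 and 6 without Osa control replicate 1), 4 with the length offset and 0 with all 14 libraries. The negative replication count was 1 without any of the same 3 libraries, and the replication counts were 0 positive and 2 negative with the length offset. The mitosis genes had a median exonic length of 2802 bases. Calls of Klp61F were lost without Osa overexpression replicate 1 (edgeR adjusted p = 0.0567) or Osa control replicate 2 (0.0533), that of SA without Osa overexpression replicate 1 (0.0636) and that of Mps1 without Osa control replicate 2 (0.0644). Those of Cap-D2, SMC2, mad2 and pim were lost without 3, 6, 5 and 7 single libraries. The call of CycE was lost without Osa overexpression replicate 1 (0.0517) or Osa control replicate 2 (0.0733).

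Genes of mature neurons rose mainly in GAF RNAi. Of 38 tested, 26 rose and 2 fell in GAF RNAi, whereas 3 rose in Osa overexpression, with median responses of 1.37 and 0.37. The difference was positive for 8 and negative for none, a share of 21.1% beside 18.4% of all genes tested. The acetylcholine receptor gene nAChRalpha6 held 53.1, 40 and 57 CPM in GAF RNAi against 6.55, 5.49 and 9.06 in GAF controls, and 73 and 83 CPM in Osa overexpression against 62.6 and 66.4 in Osa controls. GAF controls alone were low, and GAF RNAi lay between them and the Osa groups (difference 2.56 ± 0.29, edgeR adjusted p = 9.86e-05). Rim, a synaptic active zone gene, had 7.67, 5.91 and 6.1 CPM in GAF RNAi against 2.08, 1.37 and 2.53 in GAF controls, and 57.2 and 60.1 CPM in Osa overexpression against 58.3 and 48.6 in Osa controls, so all GAF libraries were low beside the Osa libraries (difference 1.58 ± 0.32, edgeR adjusted p = 0.00532). The dense-core vesicle priming gene Cadps rose in both, by 2.15 and 0.95 (difference 1.2 ± 0.25). The sodium pump subunit gene nrv3 had responses of 2.19 and 0.27 (difference 1.92 ± 0.4), a call lost without Osa overexpression replicate 1 (edgeR adjusted p = 0.07). The neuronal marker sums given above start from a level in Osa controls far above that of GAF controls, and the part of that in these differences was not tested. Positive differences numbered 4 to 10 with single libraries left out, lowest without Osa overexpression replicate 1 or Osa control replicate 1, 11 with the length offset and 2 with all 14 libraries.

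Called differences of recognition and guidance genes of neurons were also mostly positive. The share called was 25% of Dpr and DIP, 22.5% of axon guidance and 12.5% of ion channel genes. Of all genes tested it was 18.4%, with 9.45% positive. Of 32 genes of the Dpr and DIP families, cell surface partners that match neurons, 12 rose in GAF RNAi and 1 in Osa overexpression, and the difference was positive for 7 and negative for 1. Positive calls numbered 4 without any 1 of the 4 Osa libraries. The gene dpr18 held 14, 16.6 and 11.7 CPM in GAF RNAi against 2.06, 1.89 and 1.43 in GAF controls, and 19.5 and 18.4 CPM in Osa overexpression against 14.5 and 13.6 in Osa controls (difference 2.55 ± 0.35, edgeR adjusted p = 0.000439). The negative one, dpr19, rose in Osa overexpression by 0.9 beside a GAF response of −0.19. Of 40 axon guidance genes the difference was positive for 6 and negative for 3, with 3 positive without Osa control replicate 2 and 12 without GAF control replicate 1. Sema5c, a semaphorin gene, held 46.1, 44.1 and 21.4 CPM in GAF RNAi against 82.9, 56.5 and 49.9 in GAF controls, and 1.81 and 2.12 CPM in Osa overexpression against 35.8 and 48.8 in Osa controls. Only the Osa overexpression libraries were near loss, and the difference was 3.67 ± 0.47 (edgeR adjusted p = 0.000655). The guidance ligand genes NetB and sli rose in GAF RNAi by 2.25 and 1.8 beside Osa responses of 0.2 and 0.28, and the call of sli was lost without Osa control replicate 2 (0.0662). Of 32 ion channel genes 4 differences were positive, each from a rise in GAF RNAi, such as Ih (2.23) and eag (3.12). The count was 0 without Osa overexpression replicate 1 or 2 or Osa control replicate 1.

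Of 32 neuropeptide genes 2 differences were positive and 3 negative, a share of 15.6% beside 18.4% of all genes tested. The neuropeptide gene Dh31 held 18.2, 6.5 and 7.59 CPM in GAF RNAi against 0.642, 0.478 and 0.516 in GAF controls, and 72.7 and 72.5 CPM in Osa overexpression against 78.1 and 81.1 in Osa controls (difference 4.44 ± 0.55, edgeR adjusted p = 0.000653). CCHa1 was seen mainly in Osa overexpression, at 2.47 and 3.78 CPM, with no counts in Osa controls or GAF RNAi and at most 0.0652 CPM in GAF controls. Glia genes split, with 2 positive and 2 negative differences among 24, a share of 16.7%. The beta subunit gene nrv2 held 52.7, 47.4 and 54.3 CPM in GAF RNAi against 652, 749 and 637 in GAF controls, and 421 and 509 CPM in Osa overexpression against 426 and 314 in Osa controls. GAF RNAi stood far below the other groups, and the difference of −4.05 ± 0.22 (edgeR adjusted p = 1.51e-07) was called under every alternative run. The glutamate transporter gene Eaat1 rose in GAF RNAi by 1.82 beside an Osa response of 0.23. The glutamine synthetase gene Gs2 rose in Osa overexpression by 2.28 beside a GAF response of −0.85, a call lost without 5 single libraries (highest edgeR adjusted p = 0.118, without Osa overexpression replicate 1).

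**Figure D5:**
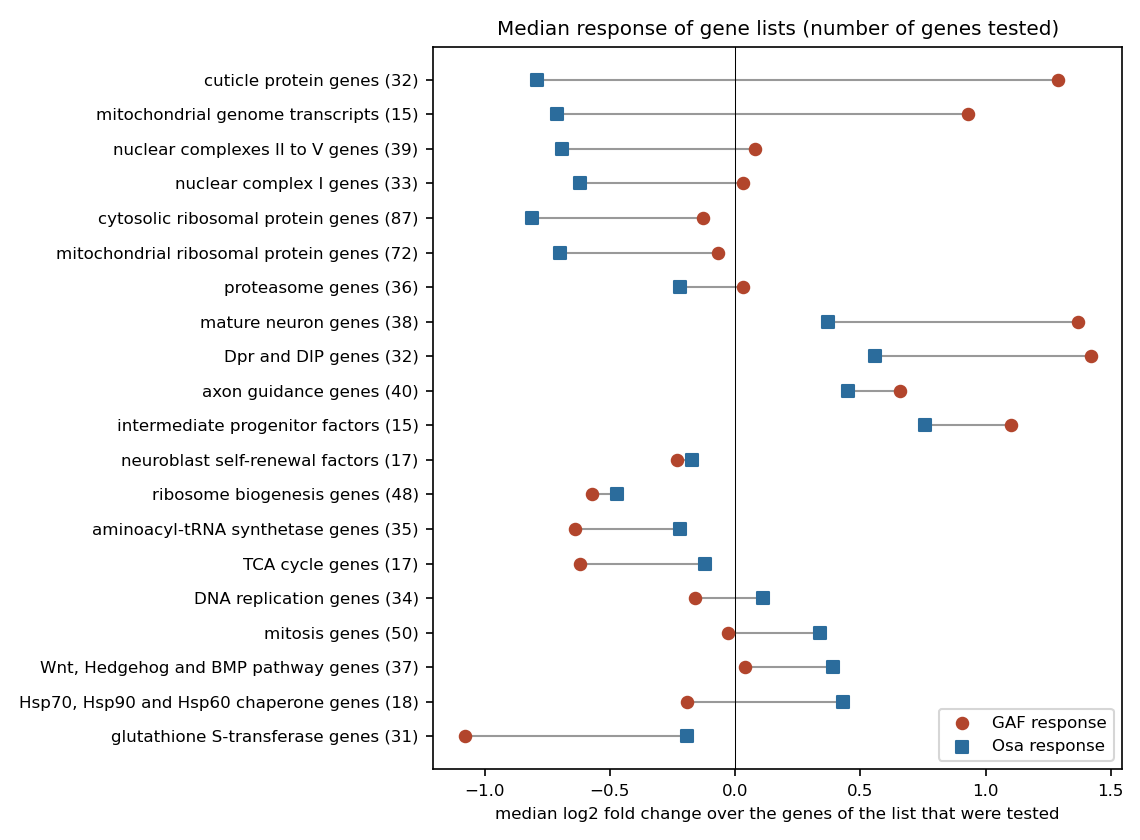
Median GAF response (red circles) and median Osa response (blue squares) over the tested genes of 20 gene lists, as log2 fold changes, with the number of genes in brackets. Cuticle and mitochondrial genome lists span 0 with the GAF median on the right (1.29 and 0.93) and the Osa median on the left (−0.79 and −0.71), while progenitor and ribosome biogenesis lists have both medians on the same side.

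Cuticle protein genes as a list had 7 positive and 0 negative differences among 32 tested, of which 10 rose in GAF RNAi and 5 fell in Osa overexpression, 4 of them opposite. Their median difference was 2.42, and the number of positive differences was 3 without Osa overexpression replicate 1, 6 with the length offset and 5 with all 14 libraries. The share called was 21.9%, beside 18.4% of all genes tested. Many of the 125 cuticle genes in the table were too low to be tested. Epidermal and tracheal markers, which would accompany epidermis, gave 2 positive differences among 14, of grh, described above, and of the POU-domain gene vvl. The gene vvl fell in Osa overexpression by 1.85 beside a GAF response of 0.4 (difference 2.26 ± 0.28, edgeR adjusted p = 0.000267).

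Glutathione S-transferase genes, of the enzymes that conjugate toxins and oxidised lipids, fell mainly in GAF RNAi, 15 of 31 there and 7 in Osa overexpression. Of 31 tested the difference was negative for 7 and positive for 3, with median responses of −1.08 and −0.19. GstE6 held 0, 0 and 0.0482 CPM in GAF RNAi against 308, 231 and 191 in GAF controls, and 25.2 and 40 CPM in Osa overexpression against 95 and 57.4 in Osa controls (edgeR adjusted p of the difference = 1.88e-06). It was near loss in every GAF RNAi library and lowered less in Osa overexpression, a called fall of 1.22. GstD3 held 1.69, 1.52 and 3.11 CPM in GAF RNAi against 89.6, 85.5 and 62.3 in GAF controls, and 59.6 and 104 CPM in Osa overexpression against 78.1 and 63 in Osa controls, which overlapped (difference −5.45 ± 0.45, edgeR adjusted p = 3.69e-05). GstE7 and GstE8 followed GstE6, and reads shared between these similar neighbours make the split between them uncertain. GstS1 fell by 2.11 in GAF RNAi beside an Osa response of 0.63. The positive differences, of GstO1, GstO2 and GstT1, came from falls in Osa overexpression. The count of negative differences was 5 to 8 with single libraries left out, 9 with the length offset and 6 with all 14 libraries.

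Few genes of 2 other detoxification families had a called difference. Ugt302C1 had no counts in GAF RNAi against 14.6, 23.8 and 9.22 CPM in GAF controls, at least 658-fold lower with the GAF RNAi group set at 3 counts. It held 1.53 and 2.31 CPM in Osa overexpression against 4.16 and 5.24 in Osa controls. It was 1 of 2 negative differences among 15 UDP-glycosyltransferase genes, with Ugt302K1, and 3 of 44 cytochrome P450 genes were negative and 1 positive, a share of 9.09% beside 18.4% of all genes. Among the largest negative differences outside these families, the mitochondrial aspartate-glutamate carrier gene aralar1 held 0.53, 0.184 and 0.578 CPM in GAF RNAi against 32.2, 38.5 and 53.7 in GAF controls, and 30.6 and 27.5 CPM in Osa overexpression against 32.2 and 33.3 in Osa controls (difference −6.42 ± 0.44, edgeR adjusted p = 1.54e-06). FucTC, a fucosyltransferase gene, also fell in GAF RNAi, but its difference was lost without Osa overexpression replicate 1 (edgeR adjusted p = 0.37) or Osa control replicate 2 (0.0664) and with limma-voom (0.21).

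Among the largest positive differences, Best4, a chloride channel gene of the bestrophin family, came from the Osa experiment. It held 25.7, 20.1 and 18.4 CPM in GAF RNAi against 16.7, 10.1 and 13.5 in GAF controls, and 0.0457 and 0 CPM in Osa overexpression against 4.01 and 5.58 in Osa controls (edgeR adjusted p = 6.15e-06). RpS10a, a ribosomal protein paralog whose reads may be shared with RpS10b, came from the GAF experiment, with 51.1, 50.9 and 51.3 CPM in GAF RNAi against 1.18, 0.89 and 0.54 in GAF controls, and 0.137 and 0.523 CPM in Osa overexpression against 0.469 and 0.851 in Osa controls (difference 6.89 ± 0.62, edgeR adjusted p = 2.46e-05). Eglp4, an aquaporin-like gene, and ringer, a tubulin-polymerisation gene, rose in GAF RNAi by 3.58 and 3.85 with Osa responses of −0.92 and −0.35 that did not pass. These 4 genes, Dh31 and dpr4 were the 6 largest of their kind, and all 6 kept their call when any single library was left out.

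Where both responses were called with the same sign, the sizes still differed for 41 genes. Tmhs fell in both, to 49.2, 47.5 and 54.7 CPM in GAF RNAi against 90.6, 84 and 68.6 in GAF controls, and to 6.22 and 8.54 CPM in Osa overexpression against 40.9 and 51.9 in Osa controls (difference 1.97 ± 0.26, edgeR adjusted p = 0.000282). The adhesion gene Fas3 rose in both, by 2.54 and 1.16, and the cell death gene skl by 3.01 and 1.77. The clock repressor gene cwo fell in both, to 1.97, 1.98 and 4.12 CPM in GAF RNAi against 45.2, 40.5 and 40.5 in GAF controls, and to 9.45 and 15.3 CPM in Osa overexpression against 23.7 and 27 in Osa controls (difference −2.93 ± 0.42, edgeR adjusted p = 0.000675). JhI-21, an amino acid transporter gene, fell by 2.39 and 1.12 (difference −1.27 ± 0.26). The call of skl was lost in 7 of 10 fits that left out a library, and that of Fas3 without Osa control replicate 2 (edgeR adjusted p = 0.0594). The growth regulator Myc fell in both by like amounts, 1.48 and 1.33, and its difference did not pass (−0.15 ± 0.28, edgeR adjusted p = 0.763). Exons of other genes, mainly CG12535, cover 61.2% of the exonic bases of Myc, and the counting of reads there is not described. Ribosome biogenesis genes also fell in both, 35 of 48 in GAF RNAi and 23 in Osa overexpression, and gave 5 positive and 4 negative differences, such as hoip (responses −0.31 and −1.31) and Non1 (−1.45 and −0.24). Both counts were 1 without Osa overexpression replicate 1 or Osa control replicate 2.

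Among patterning and signalling genes the shares with a called difference lay on both sides of the 18.4% of all genes tested. They were 16.7% of patterning transcription factors, 12.5% of Hox genes, 24.3% of Wnt, Hedgehog and BMP genes and 16.7% of EGFR and FGF genes. Of 54 patterning transcription factors 14 rose in GAF RNAi and 4 in Osa overexpression, with 6 positive and 3 negative differences. Positive calls numbered 1 without GAF control replicate 2, Osa overexpression replicate 1 or Osa control replicate 2. The runt-domain gene run held 8.08, 6.16 and 3.95 CPM in GAF RNAi against 7.64, 7.21 and 12.5 in GAF controls, and 44.2 and 22.5 CPM in Osa overexpression against 8.03 and 7.9 in Osa controls (difference −2.66 ± 0.5, edgeR adjusted p = 0.00384). Of 8 Hox genes 4 rose in GAF RNAi and 0 in Osa overexpression, and 1 difference was called, that of Ubx (responses 1.85 and −1.57, difference 3.42 ± 0.89). That call was lost without Osa overexpression replicate 1 (edgeR adjusted p = 0.0531) or 2 (0.0636) or Osa control replicate 1 (0.0976). Of 37 Wnt, Hedgehog and BMP pathway genes 7 differences were negative and 2 positive, and 2 were negative without Osa overexpression replicate 1 or Osa control replicate 2. The length offset left 3 negative and 2 positive. The Hedgehog receptor gene ptc held 0.227, 0.483 and 0.241 CPM in GAF RNAi against 14.9, 10.1 and 11.8 in GAF controls, and 11.3 and 15.1 CPM in Osa overexpression against 10.8 and 15.9 in Osa controls (difference −5.23 ± 0.49, edgeR adjusted p = 2.5e-05). The BMP receptor gene tkv fell in GAF RNAi by 1.23, and the beta-catenin gene arm rose in Osa overexpression by 1.18. Of 30 EGFR and FGF pathway genes 2 differences were positive (pnt and the FGF ligand gene pyr) and 3 negative. These were the phosphatase gene Mkp3, which fell in GAF RNAi by 2.18, the scaffold gene ksr, and the kinase gene Raf, which was opposite (−0.67 and 0.96).

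Of 27 Notch pathway genes 2 differences were positive and 4 negative, among them Tom, a Bearded-family inhibitor gene (responses −2.76 and 0.16), and mib1, a ubiquitin ligase gene for Notch ligands (−0.34 and 1.4). Without GAF control replicate 1 these counts were 7 and 4, with the length offset 3 and 1, and with all 14 libraries 0 and 1. Leaving out Osa overexpression replicate 1 or either Osa control lowered both counts. The share called was 22.2% of Notch pathway, 8% of asymmetric division and 31.2% of germline and piRNA genes, beside 18.4% of all genes tested. The call of mib1 was lost with the length offset (edgeR adjusted p = 0.0571) and with all 14 libraries (0.0925). It was also lost without Osa overexpression replicate 1 or either Osa control. Of 11 Enhancer of split genes, classical Notch targets, 0 differences were called by edgeR, DESeq2 or limma-voom and 1 had an unadjusted edgeR p under 0.05, with median responses of 0.39 and 0.53. Of 25 asymmetric division genes the difference of brat was positive (0.88 ± 0.27) and that of jar negative (−1.96 ± 0.47), and the call of brat was lost in 7 of 10 fits that left out a library, that of jar without Osa overexpression replicate 1 (edgeR adjusted p = 0.116) or Osa control replicate 2 (0.0765). Germline and piRNA genes gave 5 positive and 5 negative differences among 32. Besides mael and squ, krimp rose in GAF RNAi by 1.92 beside an Osa response of −0.46, and gcl fell by 0.92 beside 0.11. Without Osa control replicate 1 the positive and negative counts were 3 and 0, and with the length offset 4 and 0.

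The difference was called for 21.4% of Brahma complex, 21.1% of GAGA-binding and NURF partner, 18.8% of insulator, 15% of Trithorax and Mediator kinase, 13.8% of histone acetyltransferase and 12.5% of Polycomb group genes, near the 18.4% of all genes tested, and for 4.35% of HDAC1 corepressor genes. Of 14 Brahma complex genes the difference was negative for osa itself and Bap60 and positive for CG10555. Of 19 GAGA-binding and NURF partner genes 4 differences were negative, Iswi (responses −0.24 and 0.94) and mod(mdg4) among them, and the count was 0 without Osa overexpression replicate 1 or Osa control replicate 2. Of 24 Polycomb group genes 3 were negative (Pcl, esc and E(z)), and the count was 0 without Osa control replicate 2. The counts of positive and negative differences were 2 and 1 of 20 Trithorax and Mediator kinase genes, 0 and 1 of 23 HDAC1 corepressor genes (ebi), 2 and 2 of 29 histone acetyltransferase genes, 1 and 2 of 16 insulator genes, 1 and 0 of 11 dosage compensation genes and 1 and 0 of 31 histone genes. With the length offset GAGA-binding and NURF partners gave 1 positive and 0 negative and Polycomb group genes 0 and 1. In the fit of all 14 libraries none of these lists held a called difference.

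Among translation and metabolism lists, synthetase and TCA cycle genes fell mainly in GAF RNAi. The difference was called for 20% of synthetase and 29.4% of TCA cycle genes, beside 18.4% of all genes tested. In the other lists of this paragraph the share ran from 7.69% (glycolysis) to 35.7% (elongation and termination). Of 35 aminoacyl-tRNA synthetase genes 20 fell in GAF RNAi, and 7 fell and 2 rose in Osa overexpression. Of 17 TCA cycle genes 13 fell in GAF RNAi and 1 in Osa overexpression. Negative differences numbered 7 of the synthetase and 5 of the TCA cycle genes. Without Osa overexpression replicate 1 or Osa control replicate 2 these counts were 0 and 0. With the length offset they were 1 and 1, and the median differences were −0.18 and −0.21 in place of −0.52 and −0.46. For Fum1, fumarase, GAF RNAi held 61.3, 62.4 and 53.6 CPM against 77.7, 131 and 147 in GAF controls, and Osa overexpression 213 and 189 CPM against 201 and 178 in Osa controls. Its difference was −1.09 ± 0.29 (edgeR adjusted p = 0.0231), lost without 4 of the single libraries (highest edgeR adjusted p = 0.117). Positive and negative differences numbered 4 and 5 of 39 initiation factor genes, 2 and 3 of 14 elongation and termination genes, 1 and 0 of 13 glycolysis genes, 3 and 4 of 24 vacuolar proton pump genes, 1 and 0 of 8 small heat shock genes, 0 and 5 of 18 larger chaperone genes (1 and 0 with the length offset), 3 and 4 of 32 cell death and stress genes, 0 and 3 of 21 innate immunity genes and 2 and 0 of 21 nuclear receptor genes.

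Of 694 long non-coding RNAs tested the difference was positive for 55 and negative for 7, with 24 to 68 positive when single libraries were left out, lowest without Osa overexpression replicate 1. These are short, with a median of 842 bases and 476 of 689 in the 3 shortest bins. With the length offset the counts were 30 and 10 and the median difference 0.28 in place of 0.76. The share of long non-coding RNAs called was 8.93%, below the 18.4% of all genes tested. The transcript lncRNA:CR31386 held 1084, 1350 and 1248 CPM in GAF RNAi against 939, 833 and 858 in GAF controls, and 132 and 160 CPM in Osa overexpression against 341 and 376 in Osa controls, an opposite response (difference 1.78 ± 0.19, edgeR adjusted p = 5.91e-05). The abundant lncRNA:cherub, an asymmetrically inherited transcript of type II lineages named here after its values were seen, fell in Osa overexpression by 0.9 beside a GAF response of 0.18 (difference 1.08 ± 0.19, edgeR adjusted p = 0.00298). So was lncRNA:let7C, the host transcript of the let-7 complex microRNAs, which was opposite with responses of 1.65 and −2 (difference 3.65 ± 0.74, edgeR adjusted p = 0.0058). Of markers of other cells, 0% of blood cell, 0% of muscle, 5.88% of optic lobe and 22.2% of fat body genes had a called difference. The share of all genes tested was 18.4%, and these lists are small. By edgeR, positive and negative differences numbered 0 and 0 of 13 blood cell, 0 and 0 of 11 muscle, 1 and 1 of 9 fat body and 1 and 0 of 17 optic lobe genes. Of the blood cell and muscle genes 2 and 1 had an unadjusted edgeR p under 0.05, DESeq2 called 0 and 1, and limma-voom 0 and 0. Of the transgene markers the gene w had a negative difference (−0.7 ± 0.2), with responses of −0.12 and 0.58, while v and y rose in GAF RNAi without a called difference.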

How the data were processed

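RNA of type II neural stem cells was sequenced. The authors deposited whole-number counts for every gene and library, with no normalization. The submitters' processing notes name featureCounts 2.0.3, SAMtools 1.6, HISAT2 2.2.1 and Trim Galore 0.6.10, and the build dm6. Which annotation and strand setting were used, and how multi-mapping reads and mates were treated, is not given in the sources used here. The library kit does not mark strand, so a gene and its antisense partner cannot be told apart. Of counts from 1 to 49, 61.5% to 70.4% were even. Even counts are in excess where both mates of a pair are counted, and whether that was done is not given, so counts were also halved as an alternative. Gene positions and lengths are from the BDGP6 annotation, the assembly of dm6.

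Samples were grouped by title. Genes passing edgeR's expression filter (minimum count 10, minimum total 15) were scaled by TMM and fitted over 10 libraries in 4 groups with edgeR 4.0.16 (robust quasi-likelihood test, R 4.3.3). All p-values were adjusted by Benjamini-Hochberg over all 10314 genes tested. Standard errors are the log2 value divided by the square root of F. The common biological coefficient of variation was 0.264. Fold bounds use a floor of 3 counts over the group. Because reads were amplified, such bounds describe counting error alone. Replicates were compared before averaging, and no pair agreed within sampling noise (median chi-square per gene 7.51 to 28.8).

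The comparison, the 61 gene lists and the tests were chosen with earlier results of these data known. Of the list entries 18 matched no gene. Named were Trl, osa, dpn, ase, pnt and pros. Added were the 10 largest differences in each direction among opposite genes with at least 10 CPM in a group mean, libraries separated in both experiments and a symbol other than a CG, CR or non-coding name, and the 6 largest other differences in each direction. The 4 largest in each direction of the same sign in both responses and, from every list, up to 4 called genes of smallest p completed the rule. Other members are given as list values, and genes of the lists named beyond it were chosen after their values were seen. Alternatives were other scaling, filters, DESeq2 1.42.0, limma-voom (limma 3.58.1), a replicate block, all 14 libraries, a minimum log2 difference of 1, counts divided by 2, each experiment alone and each library left out. An exonic length offset was added after the data were seen. The code was tested on simulated data. Figures were drawn with matplotlib 3.10.9.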

Additional observations from a re-analysis of the deposited data

How the results depend on the processing

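Called differences, called GAF responses, called Osa responses and opposite genes numbered 1894, 2682, 1724 and 145. These totals stayed within 1.5 times with RLE factors, library size only, a mean of at least 5 CPM, limma-voom and halved counts. Opposite genes numbered 242 without a filter, 265 with DESeq2 and 81 with the replicate block. The block left 1416 differences; replicate numbers did not pair the libraries (correlations of deviations 0.002, 0.001 and −0.098 in the GAF and 0.011 and 0.011 in the Osa experiment). With all 14 libraries the 4 counts were 321, 1451, 354 and 7, and with a minimum log2 difference of 1 they were 154, 326, 45 and 1. With the length offset they were 919, 2674, 780 and 54, and the median GAF response of all genes moved to 0.12 from 0 and that of the difference to 0.07 from 0.03. This alternative was chosen after seeing the data, and a first form fitted over all genes was replaced after its results had been seen. Leaving out single libraries gave 619 to 2689 differences, 1824 to 3132 GAF responses, 341 to 2176 Osa responses and 23 to 312 opposite genes. The Osa counts were lowest without Osa overexpression replicate 1, and the remaining library of that pair is then assumed to vary like the other groups. Each experiment fitted alone gave 2573 GAF and 1929 Osa responses. RLE factors called 61.3% and library size only 25.8% of differences positive, against 51.5%. Library size only turned the balance of the Osa response to 1371 higher and 574 lower, against 565 and 1159, and that of opposite genes to 48 and 119, against 99 and 46.

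No called difference changed sign except with the length offset, where 97 did. Among named genes these were RpL41 (−0.08), mRpL55 (−0.04) and Vha14-1 (−0.02), none past the threshold there; the offset by its construction removes length trends, and no other cause was tested. Of 201 named genes with a called difference, 100 kept it in every fit that left out 1 library, 70 with all 14 libraries, 118 with the length offset and 51 under every setting run. Promoter sequence was not used here, so the planned GAGA motif count and its longer form were not run. Depth limits low genes: for Trl, at 5.01 to 14.3 CPM, the difference had a standard error of 0.42.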
